A study of Homo sapiens with 39 samples.

Results

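The 6 genes described here are CTDSP1, CTDSP2, CTDSPL and CTDSPL2, the small phosphatases of the RNA polymerase II C-terminal domain and their closest relative, together with the repressor REST and its corepressor RCOR1. They were chosen by gene family and by one measured value: CTDSP1 was selected because it was lower after 4 h of treatment in one of the lines, and the other members were taken as its relatives and partners. The array held 8 probes for them among 48107, and 5 of the 6 genes were among the 18555 genes that could be tested, with RCOR1 below the filter on low values.

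The series measured RNA on 39 Illumina bead arrays in the human lung cancer lines H209 (19 arrays), derived from a small cell carcinoma with neuroendocrine features, and H838 (20 arrays), derived from an adenocarcinoma. Treated cells received DKFZ-608 at 100 nM, a code-named compound that the labels call a non-covalent inhibitor of thioredoxin reductase 1, in 6.9 µM cyclodextrin for 4, 8 or 24 h. Control cells received the cyclodextrin vehicle alone for the same times, and a further vehicle group was taken at 0 h in each line. These are 14 groups of 3 arrays each, except for 2 arrays in both H209 groups at 8 h and in treated H838 at 24 h. Neither line was genetically altered for the study as far as the labels say, each kind of tumour is represented by a single line, and nothing in the labels says whether replicates were separate cultures, so each p-value speaks of the spread among these arrays alone, which may be technical. The quartiles of the arrays differed by at most 0.072 on the log2 scale, as on a common scale, so fewer cells and less RNA per cell cannot be told apart here.

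CTDSP1, CTDSP2 and CTDSPL are phosphatases that take phosphate off serines of the C-terminal repeats of RNA polymerase II and off SMAD proteins. In cells that are not neurons they are recruited to neuronal genes together with REST, a zinc finger protein that binds a repressor element in those genes and keeps them silent. RCOR1 is the scaffold that links REST to the histone demethylase KDM1A and to histone deacetylases. CTDSPL2 is a more distant phosphatase with the same catalytic fold, known for acting on SMAD and FOXO proteins. Neuroendocrine small cell tumours express many of the genes that REST silences elsewhere, so REST and its partners are of interest in a pair of lines of which one is neuroendocrine.

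The small phosphatases share a feature that the choice of members did not use: each carries a microRNA of the miR-26 family inside its gene, on the same strand. In RefSeq on GRCh38.p14, CTDSP1 on chromosome 2 holds miR-26b-5p at chr2:218402657-218402677 on the plus strand. CTDSP2 on chromosome 12 holds miR-26a-5p at chr12:57824658-57824679 on the minus strand, and CTDSPL on chromosome 3 holds the same mature sequence at chr3:37969413-37969434 on the plus strand. No microRNA in that table lies on the same strand within CTDSPL2, REST or RCOR1. The mature sequences are shown because they mark which members are host genes, with the seed, bases 2 to 8, in capitals.
hsa-miR-26b-5p (in CTDSP1): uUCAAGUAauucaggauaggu
hsa-miR-26a-5p (in CTDSP2 and CTDSPL): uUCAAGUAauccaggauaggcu
Both have the same seed. The array's own probes for the precursors were dim: over 39 arrays MIR26B ran from 77.1 to 105.0, MIR26A2 from 73.1 to 100.0 and MIR26A1 from 72.4 to 95.7 in intensity, against array medians of 92.6 to 94.2, so the microRNAs themselves were not followed here.

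Of the 39 arrays, 4 from H209 went against their labels and bear on every later H209 value. MT1M, a metallothionein, and HMOX1, heme oxygenase 1, separated treated from vehicle H209 arrays at 4 h. MT1M had a log2 intensity of 11.46, 11.76 and 11.54 on the treated arrays and of 6.67, 6.41 and 6.58 on the vehicle arrays. At 8 h replicate 2 and at 24 h replicate 3 the order was turned round: MT1M was at 6.56 on the array labelled treated and 12.17 on the array labelled vehicle at 8 h, and at 6.33 and 10.65 at 24 h. HMOX1 did the same, with 8.09 against 12.47 at 8 h and 7.47 against 11.01 at 24 h. TXNRD1, which encodes the compound's labelled target, was at 10.98 against 11.75 at 8 h and at 10.22 against 11.34 at 24 h, where the 4 h arrays had 11.29 to 11.67 treated and 10.66 to 10.99 in vehicle. Results for H209 are therefore given with all arrays and without these 4 arrays, which were picked by their expression, so that p-values of the second kind are not independent of the data.

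The probes also differed in how far they stood above the dim end of the array. The main probe of CTDSP1 lay between intensity 129 and 456, CTDSP2 between 425 and 1102, CTDSPL between 142 and 825, and CTDSPL2 between 175 and 298, in each case above the array's own median on all 39 arrays. REST ran only from 80.8 to 108.1 and exceeded the array's median on 2 of 19 H209 arrays and 14 of 20 H838 arrays. RCOR1 had a median of 83.2 in each line and a highest reading of 91.1, and exceeded the array's median on 0 of 39 arrays. Background had not been subtracted to 0 in the deposited values, so differences of such dim probes are understated, and intensities of different probes are not compared.

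**Figure D1:**
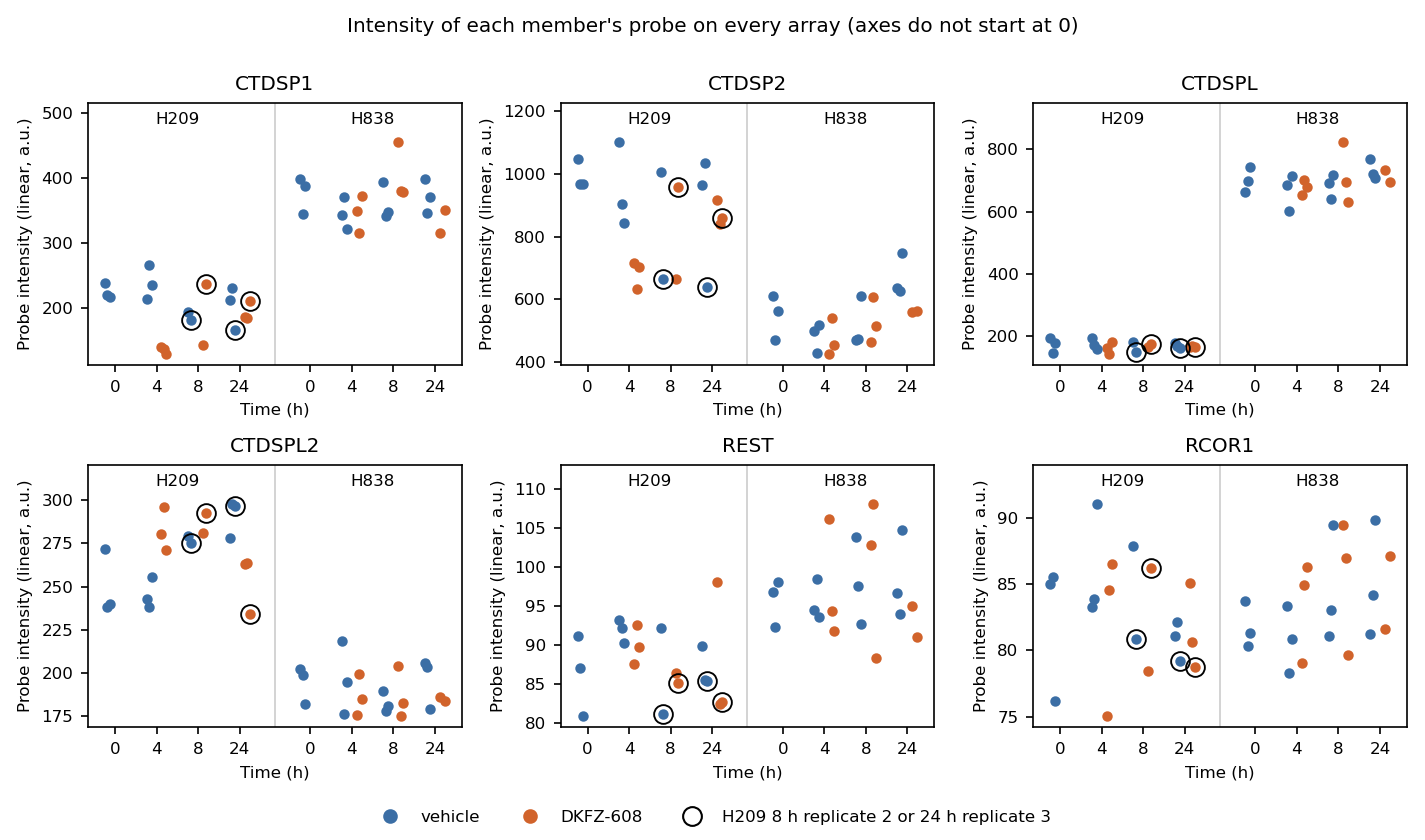
Probe intensity (vertical axes, linear, arbitrary units, not starting at 0) of each member on every array against time in h, with vehicle in blue, DKFZ-608 in orange and the 4 H209 arrays that go against their labels ringed. CTDSP1 in H209 is lowest in the treated arrays at 4 h (129 to 139), CTDSPL is several times brighter in H838, and RCOR1 reaches at most 91.1.

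CTDSP1 was the member chosen for its change, and its 4 h values in H209 are given as a description. The treated arrays read 139, 138 and 129, and the time-matched vehicle arrays 213, 267 and 235, so the groups did not overlap. The difference was -0.81 ± 0.12 on the log2 scale (SE of the fit, 3 against 3 arrays), or 1.76-fold lower with DKFZ-608. It was first by size of 23 genes that were lower and passed the fit's threshold, an adjusted p of 0.05. In all, 121 of 18555 genes (0.652%) passed in this contrast, and 348 (1.88%) in the fit without the 4 arrays. The difference itself is the same in both fits, because none of the 4 arrays was taken at 4 h. The nearest gene to it by size was LFNG, a glycosyltransferase that modifies Notch, at -0.77 ± 0.16.

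CTDSP2 was also lower in H209 at 4 h. Its treated arrays read 715, 632 and 702 and its vehicle arrays 1102, 902 and 844, again without overlap, a difference of -0.47 ± 0.16, or 1.38-fold lower. CTDSP2 was not among the 121 genes that passed with all arrays and was among the 348 without the 4 arrays, where its standard error was 0.12.

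CTDSPL overlapped between the groups at 4 h, with treated arrays at 163, 142 and 181 and vehicle arrays at 194, 173 and 158, a difference of -0.11 ± 0.10. CTDSPL2 lay the other way, with 280.3, 296 and 271 on the treated arrays and 243, 238 and 256 on the vehicle arrays. Its difference was 0.20 ± 0.08 with no overlap, and its other probe gave 0.10 ± 0.08 with overlap. REST overlapped, with 87.6, 92.5 and 89.7 treated against 93.2, 92.2 and 90.2 in vehicle, a difference of -0.030 ± 0.074. RCOR1, fitted without the filter, overlapped too, at -0.066 ± 0.064. Besides CTDSP1, which was chosen for this difference, CTDSP2 and CTDSPL2 had groups that did not overlap at 4 h in H209. Over all genes 14.2% had groups that did not overlap, 7.65% with the treated arrays lower and 6.56% with them higher. The counts belong to the contrast that chose CTDSP1, and nothing is read from them.

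The second CTDSP1 probe did not show the difference of the main probe. It was dim, from 80.5 to 105.0, above the array's median on 3 of 19 H209 arrays and 2 of 20 H838 arrays. Its difference at 4 h in H209 was 0.053 ± 0.066 with overlapping groups. The statements on CTDSP1 therefore rest on 1 probe, and although the annotation ties both to the same RefSeq transcript, why they differ was not tested.

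At 8 h in H209 each group had 2 arrays. CTDSP1 read 143 and 237 on the treated arrays, replicates 1 and 2, and 193 and 182 on the vehicle arrays. The first replicates kept the order seen at 4 h, and the second replicates, which go against their labels, had it reversed. CTDSP2 showed the same crossing, with 665 and 958 treated against 1005 and 664 in vehicle. With all arrays CTDSP1 differed by -0.026 ± 0.15 and CTDSP2 by -0.034 ± 0.19. Of 18555 genes 0 passed (0%) in limma, with 396 at an unadjusted p under 0.05.

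With the 4 arrays left out, 1 array remained on each side at 8 h, and the fit assumes that it varies like the other groups. CTDSP1 then differed by -0.43 ± 0.15 (adjusted p = 0.229 in limma) and CTDSP2 by -0.60 ± 0.20 (adjusted p = 0.181). CTDSPL differed by -0.14 ± 0.17, CTDSPL2 by 0.011 ± 0.13 and REST by -0.095 ± 0.13. None of these members passed, while 263 genes (1.42%) did.

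At 24 h in H209 the CTDSP1 readings were 186, 185 and 210.2 treated and 213, 231 and 166 in vehicle, with the third replicate reversed in order. CTDSP2 read 916, 839.9 and 858 treated and 964, 1034 and 640 in vehicle, so that the vehicle array of replicate 3 was the lowest of the 6. With all arrays the differences were -0.059 ± 0.12 for CTDSP1 and 0.017 ± 0.16 for CTDSP2, and 0 of 18555 genes (0%) passed in limma, with 439 at an unadjusted p under 0.05. In the 2 against 2 arrays left without the 4, CTDSP1 differed by -0.26 ± 0.11 (adjusted p = 0.372 in limma) and CTDSP2 by -0.19 ± 0.14 (adjusted p = 0.796). Both were lower on each treated array left than on each vehicle array left, but neither passed, while 308 genes (1.66%) did. The share of all genes with such an order of 2 against 2 arrays was not counted, so nothing is read from it.

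CTDSPL2 at 24 h in H209 read 263, 264 and 234 on arrays labelled treated and 278, 298 and 297 on arrays labelled vehicle. The readings of 234 and 297 come from replicate 3, whose arrays go against their labels, so the order of the groups is not read. The difference was -0.20 ± 0.08 (adjusted p = 1 in limma over all genes), and -0.13 ± 0.10 without the 4 arrays. The sign was thus opposite to that at 4 h in this probe, though neither difference passed with all arrays. The other CTDSPL2 probe had a smaller difference at 24 h, -0.096 ± 0.080, with overlapping groups. CTDSPL differed by -0.019 ± 0.10 and REST by 0.0087 ± 0.074 with all arrays.

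Averaging the effects at 8 and 24 h, an alternative chosen after seeing the data, gave CTDSP1 a difference of -0.043 ± 0.098 with all arrays and -0.35 ± 0.09 without the 4 arrays, 1.27-fold lower. Only the second passed in limma, at an adjusted p of 0.0336, against 579 genes (3.12%) that did so. In that fit CTDSP2 was at -0.39 ± 0.12 (adjusted p = 0.0816), CTDSPL at -0.10 ± 0.11, CTDSPL2 at -0.058 ± 0.082 and REST at -0.029 ± 0.080. The later CTDSP1 result therefore depends on leaving out arrays that were chosen by their expression of other genes. Its 8 h part is 1 array against 1, with no spread of its own.

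In H838 no member passed at any time. CTDSP1 at 4 h read 350, 315 and 372 on the treated arrays and 343, 370 and 321 on the vehicle arrays, a difference of 0.0030 ± 0.12 with a 95% confidence interval from -0.25 to 0.26. At 8 h the difference was 0.16 ± 0.12, with the treated replicate 1 highest of all H838 arrays at 456, and at 24 h it was -0.16 ± 0.14.

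CTDSP2 in H838 differed by -0.030 ± 0.16 at 4 h, 0.029 ± 0.16 at 8 h and -0.25 ± 0.18 at 24 h. At 24 h the treated arrays, 560 and 563, lay below the vehicle arrays, 637, 627 and 749, yet the adjusted p was 1 in limma. How many of all genes had such an order was not counted, so nothing is read from it. CTDSPL, CTDSPL2 and REST in H838 had differences between -0.083 and 0.063 over the 3 times. In each of these contrasts 0 of 18555 genes (0%) passed in limma, with 493, 638 and 562 at an unadjusted p under 0.05 at 4, 8 and 24 h. This fit shares its spread per gene with the H209 arrays, and with H838 arrays alone 3, 5 and 2 genes passed.

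**Figure D2:**
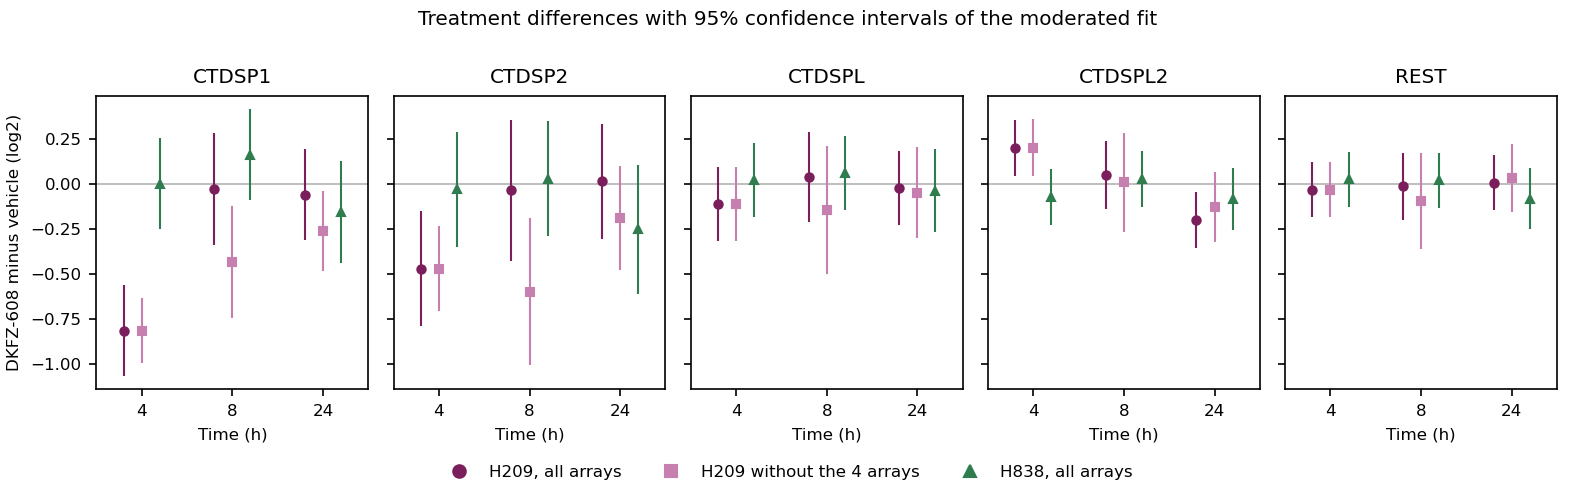
Treatment difference (DKFZ-608 minus time-matched vehicle, log2) of the 5 tested members at 4, 8 and 24 h in H209 with all arrays, in H209 without the 4 arrays, and in H838; bars are 95% confidence intervals of the moderated fit. CTDSP1 stands at -0.81 in H209 and 0.0030 in H838 at 4 h, and its later H209 points move down when the 4 arrays are left out.

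The difference between the lines in the 4 h effect was computed as an interaction, H838 minus H209. It shares the H209 arrays that chose CTDSP1 and so gives no separate support. For CTDSP1 it was 0.82 ± 0.18 with all arrays and 0.82 ± 0.12 without the 4 arrays. For CTDSP2 it was 0.44 ± 0.22, for CTDSPL 0.13 ± 0.14, for CTDSPL2 -0.27 ± 0.11 and for REST 0.056 ± 0.10 with all arrays. Over all genes 9 (0.0485%) passed with all arrays and 133 (0.717%) without the 4. At 8 h the interaction of CTDSP1 was 0.19 ± 0.20 with all arrays and 0.59 ± 0.18 without the 4 (adjusted p = 0.148 in limma). At 24 h it was -0.096 ± 0.19 and 0.10 ± 0.15.

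The lines differed in the members before any treatment, a comparison that the choice of CTDSP1 did not use. At 0 h, 4 of the 5 tested members passed the test, 2 higher and 2 lower in H838, and over all genes 45.8% passed, 21.3% higher and 24.5% lower in H838. With a background of that size the count is no particular property of these genes, and the sizes are what is described.

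Of the 5 tested members CTDSPL had the largest difference between the lines. At 0 h it read 195, 145 and 179 in H209 and 664, 699 and 744 in H838, a difference of 2.03 ± 0.10 or 4.08-fold higher in H838 (adjusted p = 3.76e-18 in limma). Over all arrays, treated ones included, H209 stayed between 142 and 195 and H838 between 603 and 825, without overlap.

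CTDSP1 was also higher in H838 at 0 h, with 399, 345 and 388 against 238, 221 and 217 in H209. The difference was 0.74 ± 0.12 or 1.67-fold (adjusted p = 4.91e-06 in limma). Over all arrays the highest H209 reading, 267, lay below the lowest H838 reading, 315.

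CTDSP2 lay the other way, with 1047, 966 and 968 in H209 and 611, 471 and 563 in H838 at 0 h. The difference was -0.87 ± 0.16, or 1.82-fold lower in H838 (adjusted p = 1.76e-05 in limma). Its ranges over all arrays overlapped, 632 to 1102 in H209 and 425 to 749 in H838.

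CTDSPL2 was lower in H838 at 0 h, with 202, 199 and 182 against 272, 238 and 239.9. The difference was -0.36 ± 0.08, or 1.29-fold lower (adjusted p = 0.000137 in limma), and the other probe gave -0.40 ± 0.08. So within the 3 host genes of miR-26 the lines did not differ in 1 direction: CTDSP1 and CTDSPL were higher and CTDSP2 lower in H838.

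REST read 91.2, 87.1 and 80.8 in H209 and 96.7, 92.4 and 98.1 in H838 at 0 h, a difference of 0.15 ± 0.07 that did not pass (adjusted p = 0.105 in limma). When the line difference was averaged over the vehicle arrays of all 4 times, an alternative chosen after seeing the data, REST was higher in H838 by 0.14 ± 0.04 (adjusted p = 0.00181). In that average 57.2% of all genes passed. It was 0.11 ± 0.04 without the 4 arrays (adjusted p = 0.0236). Both lines were close to the array's median in this probe, so the fold, 1.10, has little meaning as a ratio of RNA. RCOR1, below the filter, differed between the lines by -0.0061 ± 0.064 at 0 h.

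**Figure D3:**
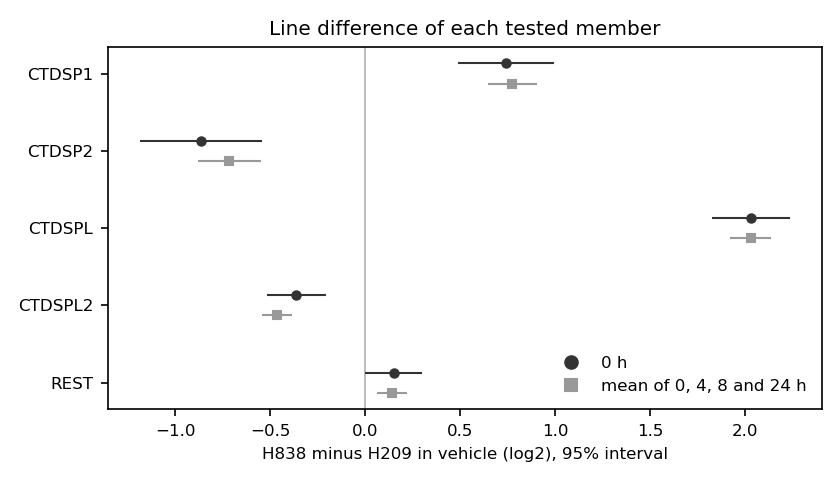
H838 minus H209 in vehicle-treated cells (horizontal axis, log2) for the 5 tested members at 0 h and as the mean of the vehicle groups at 0, 4, 8 and 24 h, all arrays, with 95% confidence intervals. CTDSPL is furthest from 0 at 2.03, CTDSP1 is higher and CTDSP2 and CTDSPL2 are lower in H838.

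Time in culture with vehicle was compared next. Between 0 and 24 h no member passed in either line, where 3 genes (0.0162%) passed in H209 and 351 (1.89%) in H838. The widest differences were 0.22 ± 0.08 for CTDSPL2 in H209 and 0.30 ± 0.16 for CTDSP2 in H838 (adjusted p = 0.513 in limma). The 0 h arrays of H209 put CTDSP1 at 217 to 238, within the range of the 4 h vehicle arrays and above all 3 treated arrays at 4 h.

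Ordered by level, the 14 group means of CTDSP1 started with treated H209 at 4 h, at log2 7.08 ± 0.06 (SD, n = 3). Then came treated H209 at 8 h at 7.53 ± 0.51 (n = 2), H209 vehicle at 8 h at 7.55 ± 0.06 (n = 2), treated H209 at 24 h at 7.59 ± 0.10 and H209 vehicle at 24 h at 7.65 ± 0.25. H209 vehicle at 0 h and 4 h followed at 7.81 ± 0.07 and 7.89 ± 0.16. The H838 groups lay above them, from 8.38 ± 0.11 in treated cells at 24 h to 8.65 ± 0.15 in treated cells at 8 h. Neighbours in this order lay within the larger of their SDs, except that the step from the highest H209 group to the lowest H838 group was larger than either SD. The step up from treated H209 at 4 h exceeded that group's own SD and lay within only the SD of treated H209 at 8 h. The wide SD of treated H209 at 8 h comes from its 2 arrays, 143 and 237, of which the second goes against its label.

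CTDSP2 had its lowest groups in H838, from 8.88 ± 0.18 in treated cells at 4 h to 9.39 ± 0.14 in vehicle at 24 h. Its lowest H209 group, treated at 4 h, came next at 9.41 ± 0.10, within the spread of that vehicle group. The highest was H209 vehicle at 0 h, at 9.96 ± 0.07.

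CTDSP1 and CTDSP2 were correlated over the H209 arrays, those at 4 h that chose CTDSP1 included. After each line's own mean was subtracted, Pearson's r between them over all 39 arrays was 0.55, rank 146 of all genes for likeness to CTDSP1, and 0.54 over the 35 arrays without the 4. Within H209 alone r was 0.79 over 19 arrays and 0.83 over the 15 arrays left. Within H838 it was -0.00068 over 20 arrays. All arrays of a line share the treatment and time groups, so these values are descriptions. In H209 they are not separate from the 4 h difference, in which both genes were lower with DKFZ-608. How many genes reach such an r within H209 was not counted. On the 4 H209 arrays both genes kept together: the vehicle arrays of 8 h replicate 2 and 24 h replicate 3 were low in both genes. The other members were less like CTDSP1 over the 39 arrays, with r of 0.27 for CTDSPL, -0.29 for CTDSPL2 and 0.11 for REST.

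**Figure D4:**
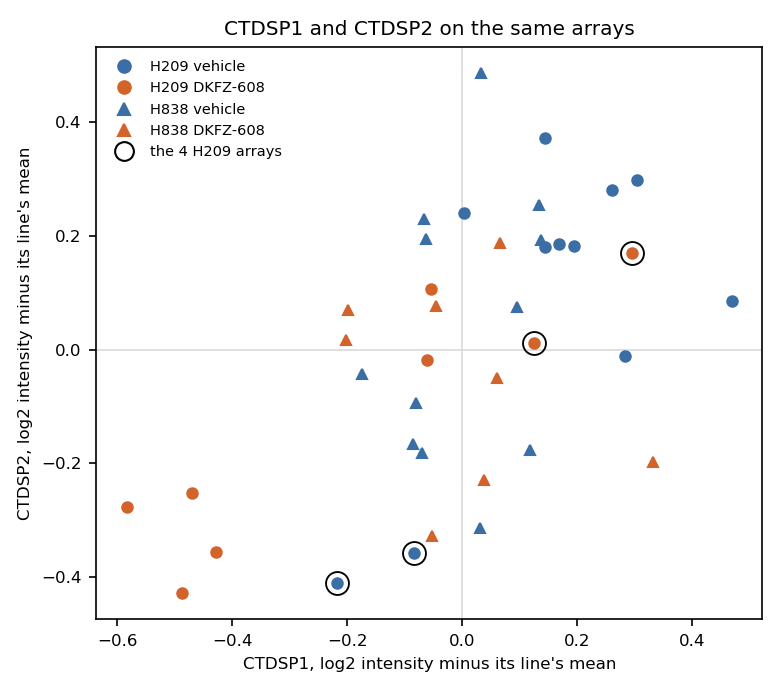
Log2 intensity of CTDSP2 (vertical) against CTDSP1 (horizontal) on each of 39 arrays, after subtracting each line's mean; circles are H209, triangles H838, blue vehicle, orange DKFZ-608, and rings mark the 4 H209 arrays. In H209 the treated arrays at 4 h and the first treated array at 8 h lie at the lower left, with the ringed vehicle arrays nearest to them.

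The 5 genes most like CTDSP1 over all 39 arrays were PAGR1 (r = 0.80), NDN (0.78), ISL1 (0.78), PRR15L (0.78) and DDX23 (0.75). Over the 35 arrays they were PRR15L (0.81), PAGR1 (0.81), ISL1 (0.80), NDN (0.79) and LIPA (0.77). ISL1 is a homeobox factor of neuroendocrine and neuronal lineages, PAGR1 a subunit of a histone methyltransferase complex, NDN the imprinted gene necdin, DDX23 a splicing helicase and LIPA the lysosomal acid lipase. Within H209 all 6 had r of 0.77 to 0.90 with all arrays, and within H838 PAGR1, DDX23 and LIPA had r of 0.43, 0.63 and 0.51. The probes of NDN, ISL1 and PRR15L exceeded the array's median on only 0, 3 and 10 of 20 H838 arrays, so no r is read for them in that line. At 4 h in H209 the treatment difference was -0.50 ± 0.12 for PAGR1, -0.36 ± 0.09 for NDN, -0.66 ± 0.13 for ISL1, -0.57 ± 0.13 for PRR15L and -0.33 ± 0.09 for DDX23. Likeness was searched over all genes on the same arrays, the treated H209 arrays at 4 h included, so these differences are not separate from the search.

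For REST the same search gave MOSPD3 first, with r of 0.59 over 39 arrays, then TNFAIP3, TAAR2, DCX and NME9. Over the 35 arrays it gave GJB2 (0.60), S100A2, UNC80, MOSPD3 and TAAR2. With a probe near the array's median these are weak relations of dim values and are listed only as the rule asks.

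Around the members, the other phosphatases of the polymerase and their helpers held 7 measured genes, and 0 passed at 4 h in H209 or at any time in H838. With all arrays, here and for each list that follows, 0.652% of all genes passed at 4 h in H209 and 0% at each time in H838. Such counts of 0 are therefore no particular property of a list. Their median difference at 4 h in H209 was 0.036, beside -0.0075 over all genes. Between the lines at 0 h, 2 were higher and 3 lower in H838, where, as for each list that follows, 21.3% of all genes were higher and 24.5% lower. RPRD1A, which binds the polymerase's C-terminal domain, was lower by -1.09 ± 0.09 and SSU72, a serine phosphatase of that domain, was higher by 0.86 ± 0.10.

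Of the kinases and cyclins that oppose these phosphatases, 10 of 11 were measured and 0 passed at 4 h in H209 with all arrays. Without the 4 arrays CDK9, the kinase of the elongation factor P-TEFb, fell by 0.25 ± 0.07 on the log2 scale at 4 h (adjusted p = 0.0358 in limma). In that contrast 0.658% of all genes were lower and passed. At 8 h CDK9 fell by 0.45 ± 0.11, with 1 array against 1. In the same fit it did not pass at 24 h, at 0.026 ± 0.081 (adjusted p = 0.966), or for the mean of 8 and 24 h, at -0.21 ± 0.07 (adjusted p = 0.112). For the mean of 4, 8 and 24 h in that fit CDK9 differed by -0.22 ± 0.05, with 1 array against 1 at 8 h. With all arrays CDK9 was at -0.25 ± 0.09 at 4 h (adjusted p = 0.28 in limma) and -0.17 ± 0.11 at 8 h. At 0 h, 4 of the 10 were higher and 1 lower in H838, among them CDK7, the kinase of TFIIH, at 1.68 ± 0.08, its cyclin CCNH at 1.05 ± 0.20 and its assembly factor MNAT1 at -1.02 ± 0.08.

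Known substrates of the phosphatases were measured for 8 of 9 genes, and 0 passed at 4 h in H209. At 0 h SMAD3, a signal carrier of the TGF-beta pathway, was higher in H838 by 0.80 ± 0.08 and the kinase AKT1 by 0.40 ± 0.10, while CDCA3, a mitotic entry factor, was lower by -0.72 ± 0.18. The remaining 5 did not pass. Under treatment in H209 without the 4 arrays CDCA3 differed by -0.46 ± 0.12 for the mean of 4, 8 and 24 h. That mean has 1 array against 1 at 8 h, and with all arrays CDCA3 did not pass in it. In H838 vehicle cultures CDCA3 was higher at 24 h than at 0 h by 1.08 ± 0.18 with all arrays. Its adjusted p there was 0.000569 in limma, where 1.89% of all genes passed.

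The corepressors of REST other than RCOR1 held 15 measured genes of 17. None passed at 4 h in H209 or at any time in H838 with all arrays. Between the lines at 0 h, 4 were higher and 5 lower in H838. The histone deacetylase HDAC2 read 93.0 to 109 in H209, near the array's median, and 2021 to 2391 in H838, a difference of 4.50 ± 0.08. HMG20B, a subunit of the RCOR1 complex, was higher by 1.52 ± 0.14. SMARCA4, the ATPase of the SWI/SNF remodeller, was lower by -2.11 ± 0.10 and RCOR2, a paralog of RCOR1, by -1.31 ± 0.13. The demethylase KDM1A had a difference of -0.33 ± 0.09 for the mean of 8 and 24 h in H209 without the 4 arrays. That mean has 1 array against 1 at 8 h, and with all arrays the difference was -0.085 ± 0.083.

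Genes that set the amount or splicing of REST were measured for 6 of 8, and 0 passed under treatment at 4 h in H209. At 0 h, 2 were lower and 0 higher in H838. SRRM4, the splicing factor that turns REST into a truncated neuronal form, read 120.3 to 129 in H209 and 81.4 to 87.4 in H838, below the array's median, lower by -0.58 ± 0.07. USP7, which removes ubiquitin from REST, was lower by -0.67 ± 0.12.

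Genes known to be silenced by REST were mostly lower in H838. Of 35 genes 33 were measured, and at 0 h 24 were lower and 1 higher in H838, with a median difference of -0.90, beside 0.0053 over all genes, of which 24.5% were lower and 21.3% higher. Among them were the secretogranins SCG2 and SCG3, proteins of secretory granules. SCG2 read 5591 to 6144 in H209 and 95.7 to 105.2 in H838, a difference of -5.86 ± 0.12. SCG3 was lower by -4.50 ± 0.11, the synaptic vesicle protein SYT4 by -4.28 ± 0.15 and the granule protein CHGA by -3.91 ± 0.13. The exception was BDNF, a neurotrophin, which read 81.7 to 85.8 in H209 and 97.9 to 107 in H838. In H838 SCG3 read 81.6 to 85.6, SYT4 78.1 to 111 and CHGA 91.2 to 94.3, so these probes and that of SCG2 lay near or below the array's median there. Background understates such differences, so their sizes and order are not exact. BDNF was near the array's median in both lines.

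The neuroendocrine markers moved with that list: all 6 measured, CHGA, SYP, INSM1, NCAM1, DLL3 and GRP, were lower in H838 at 0 h, with a median difference of -2.92. CHGA and SYP stand in both lists. GRP read 12618 to 13190 in H209 and 78.4 to 81.9 in H838, below the array's median. The epithelial markers EPCAM and CDH1 were lower and the mesenchymal markers VIM and CAV1 higher in H838. Of 9 measured markers of fibroblasts, leukocytes and endothelium, CD14 was higher and VWF lower in H838, and the other 7 did not pass. The part of lineage in the line difference of REST targets was not tested.

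**Figure D5:**
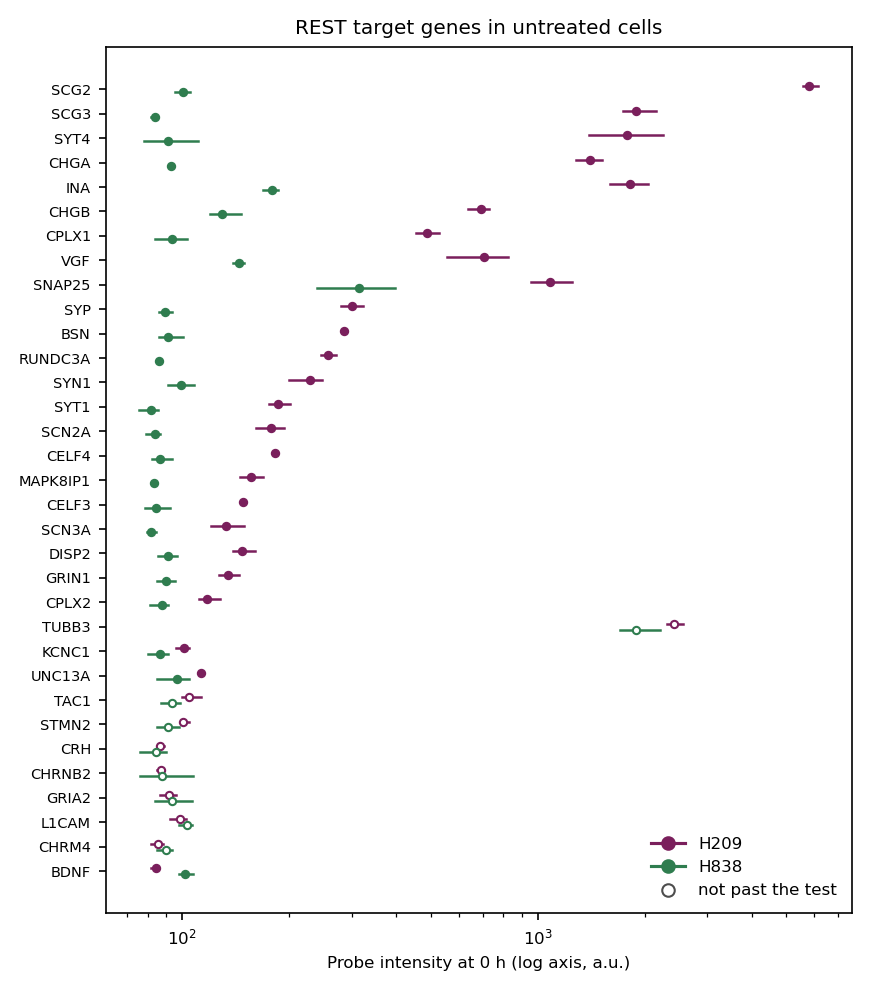
Probe intensity at 0 h (log axis, arbitrary units) of the 33 measured REST target genes in H209 and H838; points are means on the log2 scale, lines run from the lowest to the highest of 3 arrays, and open points did not pass the test. SCG2, SCG3, SYT4 and CHGA stand between 1280 and 6144 in H209 and below 111 in H838, and BDNF is the one gene past the test that is higher in H838.

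Under treatment 0 of 33 REST targets passed the test in each line and time with all arrays in limma, with a median of -0.013 at 4 h in H209, beside -0.0075 over all genes. Of all genes 0.652% passed at 4 h in H209 and 0% in each other of these contrasts. TUBB3, the neuronal beta tubulin, was a single gene apart. In H209 at 4 h it read 5221, 5832 and 5009.8 on the treated arrays and 2726, 2299 and 2279 on the vehicle arrays, without overlap, a difference of 1.14. With all arrays its standard error was 0.40 (adjusted p = 0.287 in limma), because at 8 and 24 h it followed the crossed arrays, with 2554 on the treated and 8040 on the vehicle array of replicate 2 at 8 h. Without the 4 arrays the standard error was 0.13 (adjusted p = 2.59e-07), and TUBB3 rose by 1.81 ± 0.22 at 8 h and 1.66 ± 0.16 at 24 h. In H838 it differed by -0.063, -0.042 and -0.10 at 4, 8 and 24 h.

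The other REST targets past the test in H209 without the 4 arrays were SCG2, higher by 0.33 ± 0.08 at 4 h (adjusted p = 0.0203 in limma), and CPLX2, a complexin of vesicle release, higher by 0.78 ± 0.12 at 24 h (adjusted p = 0.000105). Averaged over 8 and 24 h, TUBB3, CPLX2, SCG2 and CHGA passed and were higher, 4 of 33, and 0 were lower, while 1.98% of all genes were higher and 1.14% lower. With all arrays none of these 4 genes passed. The mean of 8 and 24 h without the 4 H209 arrays has 1 array against 1 at 8 h. The CPLX2 probe was dim: on the arrays left at 24 h it read 180 and 160 treated against 104 and 93.9 in vehicle, near the array's median. At 8 h in the fit without the 4 arrays CPLX2 differed by only 0.10 ± 0.17. Of the neuroendocrine markers outside the list of REST targets, INSM1 and DLL3 lay the other way in the fit without the 4 arrays. NCAM1 and GRP did not pass under treatment there, and DLL3 passed only for the mean of 4, 8 and 24 h. INSM1, a zinc finger factor of neuroendocrine cells, fell by 0.39 ± 0.08 for the mean of 8 and 24 h and by 0.57 ± 0.13 at 8 h, with 1 array against 1 at 8 h. DLL3, a Notch ligand, fell by 0.26 ± 0.06 for the mean of 4, 8 and 24 h (adjusted p = 0.00982), where 4.87% of all genes passed. With all arrays no neuroendocrine marker passed in these contrasts. REST itself differed by -0.030 at 4 h and by -0.029 for the mean of 8 and 24 h without the 4 arrays, within its standard errors.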

How the data were processed

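RNA was measured on 39 Illumina bead arrays. The authors deposited a table of probe intensity on a linear scale, and normalization, software and background treatment are not given in the sources used here. The widest gap between arrays in a quartile was 0.072 (log2), and values ran from 60.0 to 21062. For arrays the number of arrays limits the precision. Groups follow the sample titles, except that the titles of the 3 treated H838 arrays of replicate 1 do not name the compound and these were grouped by the labels' treatment field. For 1 H209 vehicle array (replicate 3) the title says 24 h and the time field 8 h.

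Of 48107 probes, 20 with empty cells were left out, values under percentile 1 (75.8) were set to it, log2 was taken, and probes above the table's median (93.6) in at least 2 arrays were kept (42925). Of these 26943 had exactly 1 gene symbol in GEO's platform annotation, and each of 18555 genes was read from its brightest probe. The 14 group means were fitted over all 39 arrays in limma 3.58.1 under R 4.3.3 (25 residual and 6.79 prior degrees of freedom). Tests were two-sided, adjusted by Benjamini-Hochberg over all genes of a contrast at 0.05. RCOR1 and each single probe were fitted without the filter.

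The members, lists and alternatives were chosen with earlier results of these data known. Named besides the members are up to 4 genes per list past the test in a contrast, largest first, INSM1 and DLL3 among them, the 5 genes most like CTDSP1 and REST, and MT1M, HMOX1 and TXNRD1 as the check of arrays. LFNG and BDNF were named after their values were seen. The lists were other phosphatases of the C-terminal domain, its kinases and cyclins, substrates, REST corepressors, REST turnover and splicing, REST targets and cell type markers. Replicate numbers were checked as pairs: at 4 h in H209 same-number arrays had r of 0.48, 0.14 and 0.55. Over all 16 pairs r ran from -0.59 to 0.55 and exceeded 0.1 in 8. These values do not settle whether the number pairs arrays, so the replicate block is an alternative only. The procedure was tested on simulated data. Alternatives were the 4 arrays left out, 1 line alone, the replicate block, quantile normalization, no floor, no filter or a stricter one, background subtraction, other probe rules, the time field and each array left out.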

Additional observations from a re-analysis of the deposited data

Results flagged for a closer look

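The treatment difference of CTDSP1 at 4 h was set against that in the other line. The interaction, H838 minus H209, was 0.82 ± 0.12 on the log2 scale (0.815) in the fit without the 4 H209 arrays that go against their labels, with an adjusted p of 0.000131 in limma over all genes. With all arrays it had the same size and an adjusted p of 0.0585. Treated arrays lay below vehicle arrays in 3 of 3 H209 replicates, and the groups overlapped in H838. The H209 values at 4 h are those for which CTDSP1 was chosen, and the 4 arrays were picked by expression, so the p-value is not a test of a line difference and the value describes a selected gene.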

How the results depend on the processing

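The count of genes called in H209 at 4 h was 121, and it was 348 without the 4 H209 arrays, 192 with the replicate block, 27 with H209 arrays alone, 66 after background subtraction and 55 to 100 when single arrays were left out. CTDSP1 there stayed between -0.89 and -0.73 when single arrays were left out. With the replicate block, which adds replicate terms in both lines over all times, its difference was the same, -0.81, with a standard error of 0.12. The CTDSP1 interaction at 4 h had an adjusted p of 0.034 in limma with the block and 0.0585 without it. The stricter filter gave 0.0446, the time field 0.0232 and single arrays left out 0.0774 to 0.225. All of these p-values share the H209 values at 4 h that chose CTDSP1, so none is a test of a line difference. No other call on a member changed with the block. Without the 4 arrays CTDSP2 passed at 4 h (adjusted p = 0.0227 in limma) and CTDSP1 for the mean of 8 and 24 h, which has 1 array against 1 at 8 h.

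Leaving out single arrays turned uncalled H209 differences. At 8 h CTDSP1 ran from -0.387 to 0.335, CTDSP2 from -0.333 to 0.266, CTDSPL from -0.105 to 0.183 and REST from -0.105 to 0.0796. At 24 h CTDSP2 ran from -0.197 to 0.149 and REST from -0.0739 to 0.0514. The mean of 8 and 24 h ran from -0.223 to 0.138 for CTDSP1 and from -0.158 to 0.141 for CTDSP2, and vehicle at 24 h minus 0 h from -0.338 to 0.00834 for CTDSP2. In H838 CTDSPL2 at 4 h ran from -0.147 to 0.00798 and CTDSPL at 8 h from -0.0431 to 0.152.

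Other settings reversed these uncalled values. Without the 4 arrays CTDSPL was at -0.144 at 8 h and -0.0956 for the mean of 8 and 24 h, CTDSP2 at -0.187 at 24 h and at 0.00834 for vehicle at 24 h minus 0 h. With the time field CTDSP2 was at -0.197 and 0.00834 for the same comparisons. The mean of both CTDSPL2 probes gave -0.0588 and its other probe -0.167 at 8 h in H209, and the other probe 0.0346 at 4 h in H838. The cause was not tested.

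Counts over all genes that moved by over 1.5 times without the 4 arrays were 0 to 263 and 308 at 8 and 24 h in H209, 0 to 579 for the mean of both, 0 to 4, 5 and 2 at 4, 8 and 24 h in H838, 9 to 133 for the interaction and 3 to 11 for H209 vehicle. H838 arrays alone gave 3, 5 and 2. The interaction called 27 with the replicate block, 18 with the stricter filter, 0 after background subtraction and 23 with the time field. Vehicle at 24 h minus 0 h called 9 with the replicate block and 5 with the stricter filter in H209, and 636 with the block, 159 after background subtraction and 103 to 451 with single arrays left out in H838, against 351. Depth of signal limits REST and RCOR1, whose probes lie near the array's median.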
